A study of Mus musculus with 9 samples.

Results

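The expression of 8 genes of caveolae was followed in B16 melanoma cells under cyclic straining. The genes, Cav1, Cav2, Cavin1, Cavin2, Cavin3, Ehd2, Pacsin2 and Pacsin3, were chosen by their symbols for what their proteins do and not for how they responded, out of 22972 gene names measured. Earlier results of these data were known when the choice was made. B16 is a mouse melanoma cell line, described in the labels as wild type. RNA sequencing was performed on 9 libraries at day 3, with 3 from cells on PDMS film without straining (CTL), 3 from cells strained cyclically through the film (MS) and 3 from cells in medium with blebbistatin, an inhibitor of myosin, at 100 ng/mL (MS + Blebb.), each treatment lasting 72 h. For the third group the labels mention blebbistatin without straining, and the study itself describes both. All libraries come from 1 cell line in culture. The replicates are called parallel experiments, and the culture unit or passage of each library is not given in the sources used here, so p-values measure only the spread between these samples, which may be in part technical.

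Caveolae are small flask-shaped pits of the plasma membrane that hold a reserve of surface area. When the membrane is stretched or a cell swells, the pits flatten and their coat comes apart, which buffers the rise in membrane tension. Caveolins sit in the membrane and bind cholesterol, cavins form the outer coat, the ATPase EHD2 rings the neck and holds the pit at the surface, and PACSIN proteins bend the membrane through a BAR domain. Caveolin-1 is the caveolin required for the pits in most tissues, and endothelial cells, adipocytes, fibroblasts and smooth muscle are known for large numbers of them.

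Levels are given in FPKM, a measure of fragments per gene that takes out gene length and library size, so that levels of different genes can be set side by side. The columns summed to between 439939 and 484093 FPKM, and between 9529 and 10388 genes reached 1 FPKM in a library. The number of reads is unknown. Of the 8 genes, 6 averaged at least 1 FPKM across the libraries and were among the 10109 genes tested in limma on the log2(FPKM + 1) scale. Earlier results of these data set apart 3 libraries, namely replicate 1 of CTL, replicate 3 of MS and replicate 2 of MS + Blebb. In these, the summed level of 9 stress response genes (such as Atf4 and Ddit3) was between 800 and 1066 FPKM, against between 343 and 512 FPKM in the other 6 libraries. The gene lists were chosen with those results known, so this gap is a description and no independent support for setting the 3 apart. Libraries also differed from one another in how levels followed the GC content of genes. GC content was correlated with the deviation of log2(FPKM + 1) from each gene's mean over the 9 libraries. The correlation across genes was between -0.64 in MS replicate 1 and 0.55 in MS + Blebb. replicate 1.

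Cav1, which encodes caveolin-1, had the lowest level of the members above 0. Its levels were 0.133, 0.0634 and 0.194 FPKM in CTL, 0.0853, 0.0347 and 0.167 FPKM in MS, and 0.118, 0.129 and 0.107 FPKM in MS + Blebb. All 9 values were below 1 FPKM, the groups overlapped, and the values of MS + Blebb. lay inside the range of both other groups. The mean over the 9 libraries was 0.114 FPKM, higher than that of 45.9% of all gene names. Cav1 was too low for the limma fit and was compared in FPKM. The means of CTL, MS and MS + Blebb. were 0.130 ± 0.0651, 0.0955 ± 0.0666 and 0.118 ± 0.0111 FPKM (SD, n = 3). The difference of MS from CTL was -0.0343 FPKM (two-sided exact permutation test, p = 0.6), that of MS + Blebb. from MS was 0.0223 FPKM (p = 0.7, exact) and that of MS + Blebb. from CTL was -0.0120 FPKM (p = 0.7, exact). With 20 splits of 3 libraries against 3, no p below 0.1 could be reached.

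Cav2 encodes caveolin-2, a partner that is known to need caveolin-1 to reach the cell surface, and it was among the highest of the 8 genes. Its levels were 9.75, 23.4 and 27.8 FPKM in CTL, 35.02, 20.3 and 19.2 FPKM in MS, and 18.7, 11.6 and 32.6 FPKM in MS + Blebb. The groups overlapped and differed in mean by less than the SD within each, and the highest value, in MS replicate 1, was 3.59 times the lowest, in CTL replicate 1. The means of CTL, MS and MS + Blebb. were 20.3 ± 9.43, 24.8 ± 8.83 and 20.98 ± 10.7 FPKM (SD, n = 3). Per length, Cav2 exceeded Cav1 in every library, by a ratio between 73.6 and 585 (median 158), and the lowest Cav2 value was above the highest Cav1 value. The ratio rests on Cav1 values near 0 and is imprecise for that reason.

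The caveolin genes are neighbours. In the GENCODE M21 annotation of GRCm38, Cav2 lies at chr6:17281185-17289115 on the plus strand and Cav1 at chr6:17306335-17341452 on the same strand, with 17219 bp between the end of Cav2 and the start of Cav1. An antisense gene, Gm15581, overlaps both. Whether the counting used strand is not given in the sources used here, so reads of that gene could not be told from those of the caveolins. The 250 bases before the most upstream RefSeq start of Cav1 and Cav2 are shown because these neighbours differed so far in level, and those of Cavin2 because its level followed that of Cav2 from library to library (RefSeq sequences, GRCm38.p6, 5′ to 3′ on the plus strand, at chr6:17306085-17306334, chr6:17280935-17281184 and chr1:51288876-51289125). Capitals mark the matches to the 6 motifs searched.
Cav1: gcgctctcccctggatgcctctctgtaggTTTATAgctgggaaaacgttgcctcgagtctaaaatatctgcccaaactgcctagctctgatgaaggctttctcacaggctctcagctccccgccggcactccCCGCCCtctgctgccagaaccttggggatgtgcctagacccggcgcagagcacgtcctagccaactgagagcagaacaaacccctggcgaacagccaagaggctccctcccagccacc
Cav2: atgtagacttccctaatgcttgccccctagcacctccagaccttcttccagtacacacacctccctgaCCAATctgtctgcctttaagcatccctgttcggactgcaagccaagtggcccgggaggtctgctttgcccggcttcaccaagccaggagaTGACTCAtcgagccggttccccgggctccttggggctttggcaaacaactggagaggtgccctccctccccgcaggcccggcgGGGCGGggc
Cavin2: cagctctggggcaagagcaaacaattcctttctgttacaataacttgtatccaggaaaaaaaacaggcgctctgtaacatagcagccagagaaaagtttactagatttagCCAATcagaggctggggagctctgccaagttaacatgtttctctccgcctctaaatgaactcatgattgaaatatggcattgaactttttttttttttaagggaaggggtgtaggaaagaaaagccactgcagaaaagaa

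The motifs were searched on both strands of these windows, which hold no GENCODE exon. GGGCGG, the GC box, was found in Cav1 and Cav2 and not in Cavin2, and 32.7% of 32851 promoters of the same length held it. CCAAT was in Cav2 and Cavin2 and not in Cav1 (33.8% of all promoters). TATAAA was in Cav1, on the minus strand and 221 bases before the start (12.4% of all promoters). TGACTCA, the core of an AP-1 site, was in Cav2, 92 bases before the start (4.46% of all promoters). GGAATG, the core of a TEAD site (12.6% of all promoters), and CACGTG, an E-box bound by MITF (6.02% of all promoters), were in none of the 3 windows. The windows of Cavin1, Ehd2, Pacsin2 and Pacsin3 are not shown and were not checked for exons. Of these, Cavin1 and Pacsin3 held GGAATG, and none held CACGTG. The windows of Cavin1 and Pacsin3 lie wholly inside the GENCODE spans of these genes, and that of Ehd2 lies in part inside its own. Both GGAATG matches are thus within annotated genes and not upstream of them. The GC content of the windows was 59.6% for Cav1, 62.0% for Cav2 and 40.4% for Cavin2. A match is a description of the letters and not of binding.

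Cavin1 encodes the cavin that is required to build the coat. It lies at chr11:100956733-100970887 on the minus strand. Its levels were 11.1, 10.5 and 14.4 FPKM in CTL, 11.3, 11.2 and 11.04 FPKM in MS, and 15.1, 14.6 and 12.6 FPKM in MS + Blebb. The MS values were close to one another, with an SD of 0.152 FPKM, and each MS + Blebb. value was above all of them, while CTL overlapped both groups. The means of CTL, MS and MS + Blebb. were 12.0 ± 2.08, 11.2 ± 0.152 and 14.1 ± 1.30 FPKM (SD, n = 3). The highest library was 1.44 times the lowest, the narrowest range of the 7 members above 0.

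Cavin2 encodes a cavin that shapes the coat and whose overexpression is known to pull caveolae into tubules. It lies at chr1:51289126-51302960 on the plus strand, where an antisense gene, 9330175M20Rik, overlaps it. Its levels were 3.24, 8.97 and 9.33 FPKM in CTL, 13.2, 6.69 and 6.67 FPKM in MS, and 5.11, 2.64 and 9.30 FPKM in MS + Blebb. The high and low libraries were nearly those of Cav2, and the groups overlapped. The means of CTL, MS and MS + Blebb. were 7.18 ± 3.42, 8.85 ± 3.76 and 5.68 ± 3.37 FPKM (SD, n = 3). The highest library was 5.00 times the lowest.

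Cavin3, a cavin at chr7:105480083-105482300 on the minus strand, was listed at 0 in 9 of 9 libraries. Atp5o, which encodes a subunit of ATP synthase that every respiring cell uses, was listed at 0 in 9 of 9 libraries as well. A listed 0 could therefore be a failed estimate, and no statement on the expression of Cavin3 is made from it.

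Ehd2 lies at chr7:15946958-15967567 on the minus strand. Its levels were 3.04, 1.86 and 3.22 FPKM in CTL, 3.05, 2.44 and 2.31 FPKM in MS, and 3.09, 2.12 and 2.10 FPKM in MS + Blebb. The 3 groups overlapped, and each held a library above 3 FPKM. The means of CTL, MS and MS + Blebb. were 2.71 ± 0.741, 2.60 ± 0.395 and 2.43 ± 0.567 FPKM (SD, n = 3).

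Pacsin2 encodes the PACSIN protein found at caveolae of many cell types, and it lies at chr15:83375607-83464606 on the minus strand. Its levels were 27.7, 22.7 and 23.6 FPKM in CTL, 23.8, 19.4 and 29.3 FPKM in MS, and 19.6, 26.5 and 22.4 FPKM in MS + Blebb. Both the highest and the lowest value were in MS, and the means of CTL, MS and MS + Blebb., 24.6 ± 2.66, 24.2 ± 4.98 and 22.8 ± 3.47 FPKM (SD, n = 3), differed by less than the spread within each group. Pacsin3, best known from muscle caveolae, lies at chr2:91255954-91264679 on the plus strand. Its levels were 18.3, 15.9 and 14.8 FPKM in CTL, 15.9, 15.3 and 16.9 FPKM in MS, and 14.7, 21.5 and 13.0 FPKM in MS + Blebb. MS + Blebb. held both extremes, and the means of CTL, MS and MS + Blebb. were 16.3 ± 1.83, 16.004 ± 0.801 and 16.4 ± 4.52 FPKM (SD, n = 3). Pacsin2 exceeded Pacsin3 in every library, by a ratio between 1.23 and 1.74.

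**Figure D1:**
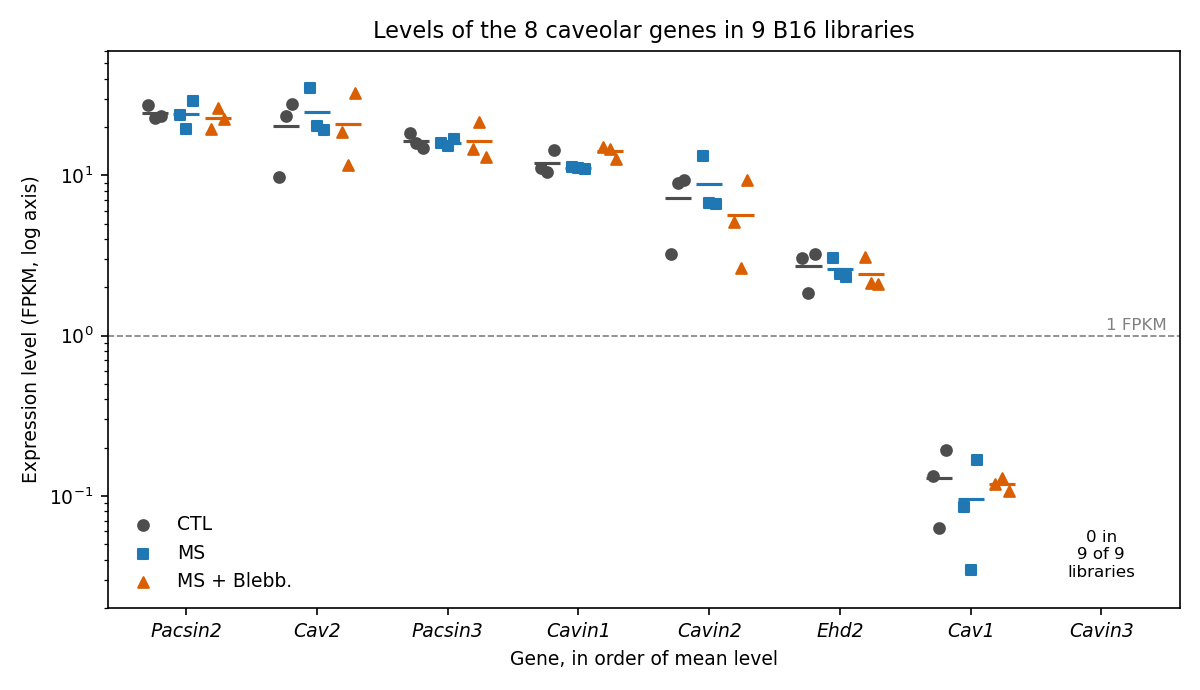
Expression level of each caveolar gene in FPKM on a log axis, with 1 point per library, 3 libraries per group (circles CTL, squares MS, triangles MS + Blebb.) and a short line at the group mean. Of the 8 genes, 6 lie above 1 FPKM, Cav1 lies below 0.2 FPKM in every library and Cavin3 is listed at 0 in 9 of 9 libraries.

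In order of the mean over the 9 libraries, the genes ranked as Pacsin2 (23.9 FPKM), Cav2 (22.1 FPKM), Pacsin3 (16.2 FPKM), Cavin1 (12.4 FPKM), Cavin2 (7.24 FPKM), Ehd2 (2.58 FPKM), Cav1 (0.114 FPKM) and Cavin3 (0). Pacsin2 and Cav2 could not be separated, since Pacsin2 was the higher in 4 of 9 libraries. Cav2 was above Pacsin3 in 7 of 9 libraries, Pacsin3 above Cavin1 in 8 of 9 and Cavin1 above Cavin2 in 8 of 9, with overlapping ranges in each case. Cavin2 was above Ehd2 in 9 of 9 libraries, although the ranges over all libraries overlapped. The step from Ehd2 to Cav1 was the one clear gap above 0, with no overlap of their ranges. Pacsin2 ranked above 87.3% of all gene names by its mean, Cav2 above 86.5% and Cavin1 above 80.02%, against 45.9% for Cav1.

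Of the 6 genes tested, Cav2 and Cavin2 varied most between libraries on the log2 scale, and in nearly the same libraries. On the log2(FPKM + 1) scale, the SD over the 9 libraries was 0.59 for Cav2 and 0.64 for Cavin2, larger than the SD of 93.3% and 95.1% of the genes tested. It was between 0.19 and 0.21 for Cavin1, Pacsin2, Pacsin3 and Ehd2, against a median of 0.23 over the genes tested. Ranked by level, 5 of 9 libraries held the same rank for both genes and the other ranks differed by 1. MS replicate 1 was highest for both, and CTL replicate 1 and MS + Blebb. replicate 2 were the lowest. The ratio of Cav2 to Cavin2 was between 2.61 and 3.01 in CTL, between 2.65 and 3.04 in MS and between 3.51 and 4.41 in MS + Blebb., so that MS + Blebb. lay above both other groups. This separation was noticed in the data and is given with no test. With the GC trend removed the groups overlapped, with a difference between the deviations of Cav2 and Cavin2 from 0.034 to 0.53 in MS + Blebb. and from -0.29 to 0.14 in CTL on the log2 scale. The spread of each gene was inside the groups, as the SD within groups was 0.66 for Cav2 and 0.67 for Cavin2. Pacsin3 ran the other way in part, with its highest deviations, 0.40 and 0.18, in MS + Blebb. replicate 2 and CTL replicate 1 and its lowest, -0.29, in MS + Blebb. replicate 3. The 9 points are libraries of 3 groups that differ in their GC trend and whose depth is unknown, and the likeness is given as a description.

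**Figure D2:**
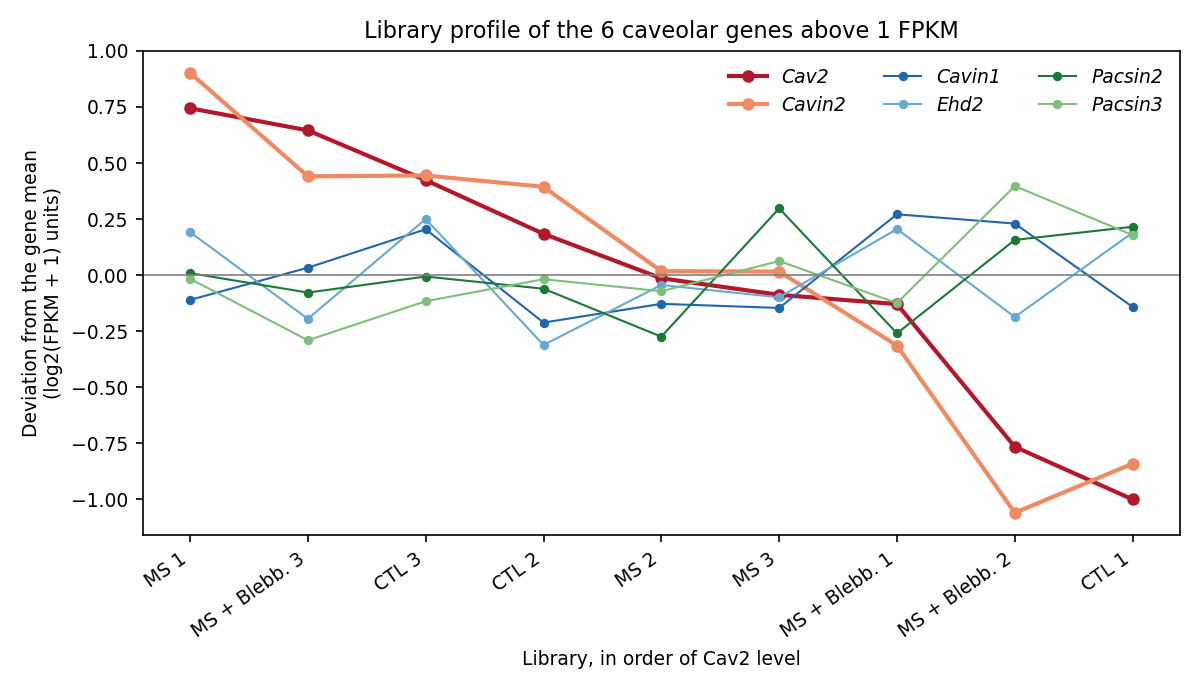
Deviation of each of 6 caveolar genes from its mean over the 9 libraries, in log2(FPKM + 1) units, with the libraries ordered by the level of Cav2 and 1 line per gene. Cav2 and Cavin2 fall together from MS replicate 1 to CTL replicate 1 and MS + Blebb. replicate 2, while the other 4 genes stay within 0.40 of their means. Pacsin3 has its 2 highest values in the 2 libraries lowest for Cav2.

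The pattern of these genes was set beside the GC content of transcripts. Cav2 has the lowest GC content of the 8 genes, 37.5% over its longest transcript, and Cavin2 has 44.4%, against a median of 49.9% over the genes tested. Cavin1, Ehd2, Pacsin2 and Pacsin3 have between 52.7% and 58.8%. When the trend of each library on GC content was removed, the SD of Cav2 fell from 0.59 to 0.20, and that of Cavin2 from 0.64 to 0.41. The median over the genes tested went from 0.23 to 0.20. The deviation of Cav2 in MS replicate 1 went from 0.74 to 0.096 and in CTL replicate 1 from -1.0 to -0.41. For Cavin2 the deviation went from 0.90 to 0.52 in MS replicate 1 and from -1.06 to -0.71 in MS + Blebb. replicate 2, and these libraries remained its highest and its lowest. The library with the highest level of both genes, MS replicate 1, had a correlation of deviation with GC content of -0.64 across genes. Those with the lowest levels had 0.45 (CTL replicate 1) and 0.54 (MS + Blebb. replicate 2). The highest correlation, 0.55, was in MS + Blebb. replicate 1, where the deviation was only -0.13 for Cav2 and -0.31 for Cavin2. CTL replicate 1 and MS + Blebb. replicate 2 are also 2 of the 3 with a high sum of stress response genes. In MS replicate 3, the other of these 3, Cav2 and Cavin2 both ranked 6 of 9. Of the 9 stress response genes, 8 were tested and 0 had an adjusted p under 0.05 in any comparison (limma), beside 0% of all genes. At an unadjusted p under 0.05 it was 1 of 8 in MS + Blebb. against MS (1.25% of all genes) and 1 of 8 in MS + Blebb. against CTL (0.089%). In MS against CTL it was 0 of 8 (0.158%). The 3 libraries stand 1 in each group, so a comparison of groups cannot show what sets them apart. The part of GC content and of these genes in the pattern was not tested.

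**Figure D3:**
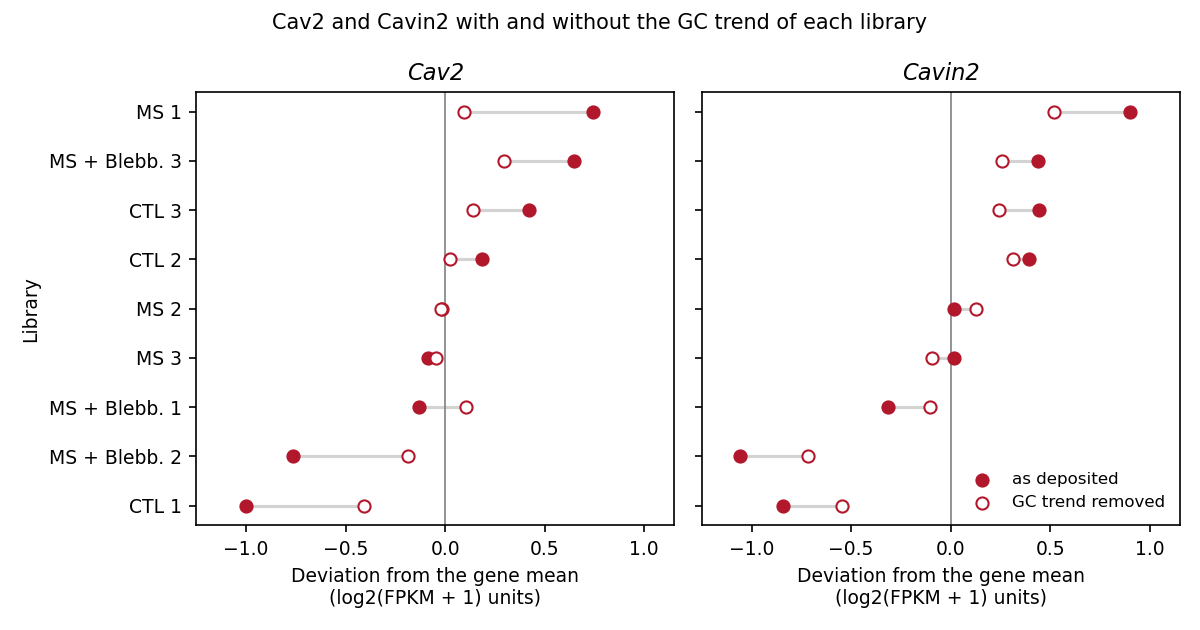
Deviation of Cav2 and Cavin2 from their means in each library, in log2(FPKM + 1) units, as deposited (filled) and with the GC trend of the library removed (open). The open points of Cav2 lie between -0.41 and 0.29 and those of Cavin2 between -0.71 and 0.52, closer to 0 than the filled points in the libraries at both ends.

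The genes with the most similar profile were found by the smallest root mean square difference of centred log2(FPKM + 1) values over the 9 libraries, among 7003 genes that averaged at least 5 FPKM. For Cav2 they were Ddx52 (0.078), Sinhcaf (0.078) and Zfp367 (0.080), and Cavin2 ranked 128 with 0.17. For Cavin2 they were a locus without a gene symbol (0.066), Rell1 (0.087) and Wdr75 (0.092), and Cav2 ranked 134. The 5 named genes have a GC content between 41.4% and 47.0%, below the median of the genes tested. The part of GC content in the likeness was not tested.

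MS against CTL answers whether straining changed the caveolar genes. None of the 6 genes tested passed the test. An adjusted p under 0.05 was found for 0 of 6 (limma, Benjamini-Hochberg over all genes tested), where the share of all genes was 0%. At an unadjusted p under 0.05 it was also 0 of 6, beside 0.158% of all genes (16 of 10109), and 0 of 6 had groups without overlap, beside 3.17% of all genes. Bulk RNA cannot tell fewer cells that express a gene from less RNA per cell, so a level here is an average over the culture. Differences of levels are given as log2 fold changes of FPKM + 1, which understate changes of low genes. Cav2 was at 0.35 on this scale (standard error 0.45, 95% interval -0.67 to 1.36, adjusted p = 1.00, limma), a value within its error. Cavin2 had 0.31 (interval -0.73 to 1.36, adjusted p = 1.00, limma). For these variable genes the interval reaches past a log2 change of 1, so a 2-fold rise lies within it.

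The steadier genes were bounded more tightly in the same comparison. The log2 fold change of Cavin1 was -0.079 (95% interval -0.41 to 0.25), that of Ehd2 -0.026 (-0.49 to 0.43), that of Pacsin2 -0.039 (-0.44 to 0.36) and that of Pacsin3 -0.023 (-0.44 to 0.39), each with an adjusted p of 1.00 (limma). The median over the 6 genes was -0.025 and 2 of 6 were above 0, against a median of -0.0018 and 49.5% above 0 over all genes tested. The differences of Cav2 and Cavin2 moved most with CTL replicate 1, without which they were -0.090 and -0.11, and with MS replicate 1, without which they were 0.080 and 0.018. With the GC trend removed they were 0.093 and 0.18, and without the 3 libraries set apart 0.061 and 0.041.

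MS + Blebb. against MS asks, with the groups as the study describes them, what the myosin inhibitor changed in strained cells. Cavin1 was the member with separate groups, at between 12.6 and 15.1 FPKM in MS + Blebb. and between 11.04 and 11.3 FPKM in MS. In limma its log2 fold change was 0.31 (standard error 0.14, 95% interval -0.021 to 0.63), which did not pass the test (adjusted p = 0.897). Thus 1 of 6 members had groups without overlap, beside 3.73% of all genes in either direction and 3.05% in the higher direction. An adjusted p under 0.05 was again found for 0 of 6 (limma), beside 0% of all genes, and at an unadjusted p under 0.05 it was 0 of 6, beside 1.25% of all genes (126 of 10109). The Cavin1 difference was between 0.17 and 0.38 under the alternatives tried and was smallest with the GC trend removed. Its direction could not turn when libraries were left out, as the groups did not overlap. Several other settings cannot change the estimate. Its adjusted p was between 0.450 and 1.00 over all alternatives. The unadjusted p of Cavin1 fell below 0.05 in 4 of 18 settings (limma). These were no minimum, median-of-ratios factors, a block for the 3 libraries set apart and the fit without MS + Blebb. replicate 3. The count at that threshold was then 1 of 6, and the share of all genes under these settings was not counted. Without the 3 libraries set apart the log2 fold change of Cavin1 was 0.27.

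The other members moved less or varied more. Cavin2 was at -0.62 on the log2 scale (standard error 0.46, 95% interval -1.67 to 0.42, adjusted p = 0.897, limma). Its lowest library, MS + Blebb. replicate 2, and its highest, MS replicate 1, stood in the groups compared, and with the GC trend removed the value was -0.37. It was -0.25 when MS + Blebb. replicate 2 was left out, -0.33 when MS replicate 1 was, and -0.999 when MS + Blebb. replicate 3 was. Leaving out the 3 libraries set apart gave -0.40. Cav2 had -0.30 (-1.31 to 0.72, adjusted p = 0.901, limma), which turned to 0.061 with the GC trend removed and to 0.044 without MS + Blebb. replicate 2, and was -0.11 without the 3 libraries set apart. Ehd2 was at -0.075 (-0.54 to 0.39, adjusted p = 0.950, limma), Pacsin2 at -0.071 (-0.47 to 0.33, adjusted p = 0.944, limma) and Pacsin3 at 0.0024 (-0.41 to 0.42, adjusted p = 0.998, limma). The median over the 6 genes was -0.073 with 2 of 6 above 0, against -0.0059 and 49.0% over all genes tested.

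MS + Blebb. against CTL sets both treatments, as the study describes them, against neither, and it shares its libraries with the other comparisons. The number of members with an adjusted p under 0.05 was 0 of 6 (limma), beside 0% of all genes, with 0 of 6 at an unadjusted p under 0.05 (0.089% of all genes) and 0 of 6 without overlap (2.08% of all genes). Cavin1 had the highest log2 fold change of the 6, 0.23 (95% interval -0.10 to 0.56, adjusted p = 1.00, limma), and the CTL library at 14.4 FPKM lay within the MS + Blebb. range. Without that library, 1 of 18 settings, the unadjusted p of Cavin1 was under 0.05 (limma), at a log2 fold change of 0.35. The share of all genes under that setting was not counted. Cavin2 had -0.31 (-1.35 to 0.73) and Cav2 0.048 (-0.97 to 1.06). Ehd2 had -0.10 (-0.56 to 0.36), Pacsin2 -0.11 (-0.51 to 0.29) and Pacsin3 -0.021 (-0.43 to 0.39), all with an adjusted p of 1.00 (limma). The median was -0.061 with 2 of 6 above 0, against -0.013 and 46.0% over all genes tested.

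**Figure D4:**
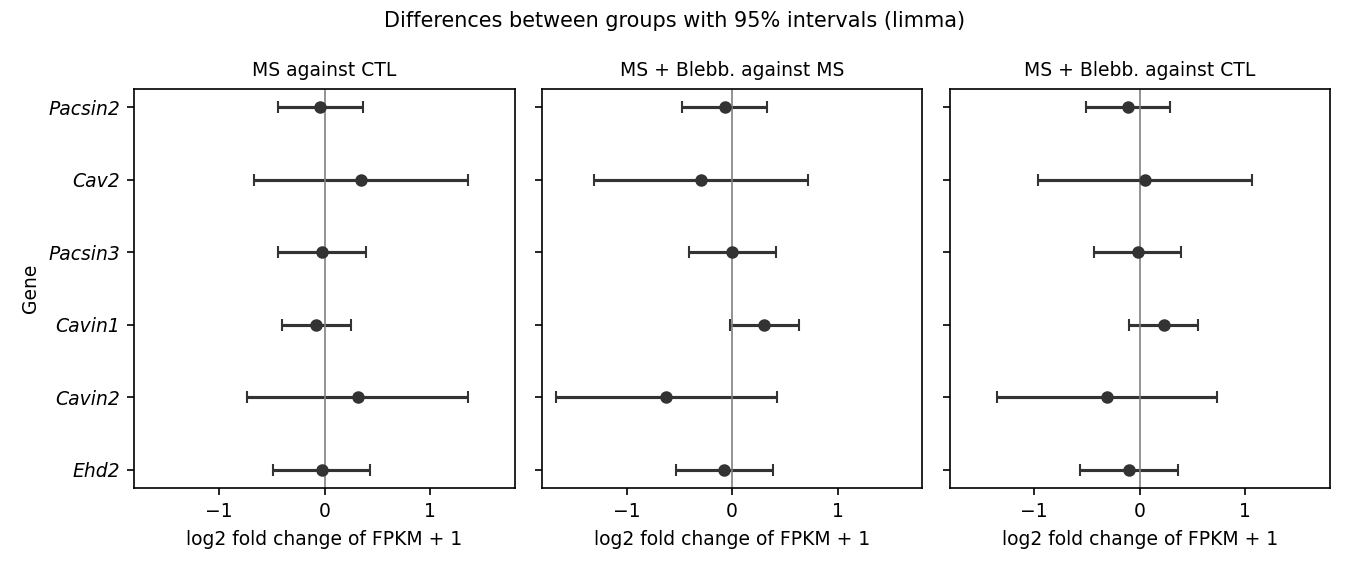
Log2 fold change of FPKM + 1 for the 6 caveolar genes tested in each comparison, with 95% intervals from 1 limma fit over the 9 libraries. All 18 intervals include 0, and those of Cav2 and Cavin2 are the widest.

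Paralogs and partners of the caveolar genes were followed as lists, with 0 genes past an adjusted p of 0.05 in either direction in any comparison (limma). Of 6 paralogs, 3 were tested. Ehd1, Ehd4 and Ehd3, which act in the recycling of membrane from endosomes, were at 41.7, 14.7 and 10.9 FPKM over the 9 libraries, each above Ehd2. The muscle paralogs Cav3 and Cavin4 were listed at 0 in every library, and the neuronal paralog Pacsin1 lay between 0.124 and 0.480 FPKM. In MS against CTL, the paralogs tested had log2 fold changes between -0.084 and 0.021. The summed level of the 6 paralogs was between 58.7 and 64.1 FPKM in the 3 libraries set apart and between 65.7 and 78.9 FPKM in the other 6. For the 8 caveolar genes the sums overlapped, at 73.2 to 85.6 FPKM in the 3 and 75.3 to 102.4 FPKM in the other 6. How many of all genes separate these libraries was not counted. The sums, here and below, follow mainly the highest genes of a list and are given as a description.

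Of 12 genes that regulate caveolae, 9 were tested and 0 were called in any comparison (limma), while Dnm3 and Nos3 averaged 0.0246 and 0.489 FPKM and Ror1 was listed at 0. Flna, which encodes the filamin A that links caveolin to actin, was at 121 FPKM, Dnm2, the dynamin that cuts membrane necks, at 50.8 FPKM and Src, a kinase that phosphorylates caveolin-1, at 41.5 FPKM over the 9 libraries. The median log2 fold change over the 9 genes was -0.12 in MS against CTL, with 1 of 9 above 0, beside 49.5% of all genes tested. For MS + Blebb. against MS it was 0.13, with 8 of 9 above 0, beside 49.0% of all genes tested. These comparisons share the MS libraries. In MS + Blebb. against CTL 6 of 9 were above 0, beside 46.0% of all genes tested. The summed level of the 12 regulators overlapped, at 298 to 319 FPKM in the 3 libraries set apart and 253 to 326 FPKM in the other 6.

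Membrane scaffolds that do not depend on caveolin were also present. Of 8 flotillin and stomatin genes, 7 were tested and 0 were called (limma). Flot2 was at 58.4 FPKM, Stoml2 at 39.9 FPKM and Stom at 35.2 FPKM over the 9 libraries, each above every caveolar gene in mean level. For MS against CTL the median log2 fold change of these 7 genes was -0.062, and for MS + Blebb. against MS it was 0.15. Their summed level was between 209 and 253 FPKM in the 3 libraries set apart and between 160 and 198 FPKM in the other 6. Among 20 genes of tension-linked endocytosis and BAR proteins, 17 were tested and 0 were called (limma), led by Arf1 (293 FPKM), Cdc42 (151 FPKM) and Sh3gl1 (45.1 FPKM). Their median was 0.012 in MS against CTL and 0.0045 for MS + Blebb. against MS, and their sum was lower in the 3 libraries set apart (575 to 623 FPKM) than in the other 6 (635 to 682 FPKM).

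Cholesterol, which caveolins bind, was followed through 13 genes of its synthesis and uptake, all of which were tested. Npc2, a lysosomal carrier of cholesterol, was at 107 FPKM and Srebf2, the factor that turns on the synthesis genes, at 80.5 FPKM over the 9 libraries. In MS + Blebb. against CTL, 0 of 13 were above 0, beside 46.0% of all genes tested. The median log2 fold change was -0.21, against -0.013 over all genes tested, and 2 of 13 had groups without overlap, beside 2.08% of all genes. In MS against CTL 3 of 13 were above 0 (median -0.055), and in MS + Blebb. against MS 4 of 13 were (median -0.079). None passed the test (0 of 13 with an adjusted p under 0.05, limma, and 0 of 13 with an unadjusted one). The summed level of the list was between 613 and 709 FPKM in the 3 libraries set apart and between 439 and 582 FPKM in the other 6.

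The identity of the cells was checked on marker genes. All 8 melanocyte markers had a mean of at least 1 FPKM, with sums between 13921 and 15115 FPKM in the 3 libraries set apart and between 9399 and 11417 FPKM in the other 6. Most markers of the cell types rich in caveolae averaged below 1 FPKM, some of them listed at 0, which can be a failed estimate as for Cavin3. Of 6 adipocyte markers and of 8 fibroblast markers, 0 had a mean of at least 1 FPKM, with single values of at most 0.0322 FPKM and 0.911 FPKM. Of 8 endothelial markers, Plvap alone was above, between 0.783 and 2.01 FPKM, while Cdh5, Kdr, Tek and Tie1 were listed at 0 in every library. Of 6 smooth muscle markers, Des alone was above, between 4.66 and 9.15 FPKM.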

How the data were processed

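RNA of B16 cells was sequenced by the authors, who extracted it with Trizol and built libraries with a SMARTER kit for mRNA. The authors deposited 1 FPKM value per gene name and library, so length and depth had been scaled before deposit. The builds GRCm38 and mm10 are named in the submitters' processing notes, and the aligner, counter and annotation are not given in the sources used here. For CTL replicate 1 the value column carries the library name as its header, and it was taken to hold FPKM too. No 2 libraries held identical values. Low values shared no common step between libraries (at most 1.61% of ratios in a bin of 0.02 on the log2 scale), so depth is unknown and no counting intervals are given.

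Values were transformed as log2(FPKM + 1). Genes averaging at least 1 FPKM (10109) were fitted in limma 3.58.1 (R 4.3.3) with 1 mean per group and a mean-variance trend, two-sided, with Benjamini-Hochberg adjustment and a threshold of 0.05. Cav1 was compared by an exact permutation test. GC content was that of a gene's longest transcript in GENCODE M21 (9663 of the genes tested, 95.6%), and its trend was removed with loess (span 0.5). Promoter windows came from RefSeq.

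The members and gene lists were chosen with earlier results of these data known. Genes named besides the 8 members are the 3 with the highest mean of each list (1 of them is not reported here), the 3 nearest profiles of each member with an SD of at least 0.4 and, chosen after their values were seen, markers, paralogs and regulators listed at 0 or low, Atp5o, Atf4 and Ddit3. Alternatives were no minimum or one of 5 FPKM, a pseudocount of 0.1, quantile normalization or median-of-ratios factors (0.944 to 1.06), a fit to the compared groups only, no mean-variance trend, a replicate block, each library left out, the 3 libraries set apart left out or as a block, and removal of the GC trend. Those for Cav1 were chosen after seeing the data. Plots were drawn with matplotlib 3.10.9.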

Additional observations from a re-analysis of the deposited data

How the results depend on the processing

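No log2 fold change of a caveolar gene had an adjusted p under 0.05 in limma under any alternative, and the count of members called stayed at 0 of 6 in each comparison. Of 18 log2 fold changes, 4 kept their direction under every alternative, those of Cavin1 in both comparisons of MS + Blebb., of Cavin2 in MS + Blebb. against MS and of Pacsin2 in MS + Blebb. against CTL. Of 195 values under alternatives other than leaving out 1 library, 181 had the direction reported and 14 the opposite, and of 108 with 1 library left out, 83 had it and 25 did not. A changed minimum, no mean-variance trend, a fit to the compared groups only and both blocks leave a log2 fold change as it is. The direction under these settings was fixed in advance, and the 181 include them. For Cavin1 in MS + Blebb. against MS, leaving out libraries could not turn the direction either, as the groups did not overlap. With the GC trend removed, MS against CTL turned to 0.018 for Cavin1, 0.048 for Ehd2, 0.016 for Pacsin2 and 0.082 for Pacsin3, and MS + Blebb. against MS turned to 0.061 for Cav2 and -0.14 for Pacsin3. Without the 3 libraries set apart, MS against CTL turned to 0.10 for Ehd2 and 0.023 for Pacsin3, MS + Blebb. against MS to -0.16 for Pacsin3, and MS + Blebb. against CTL to -0.046 for Cav2 and 0.036 for Ehd2. Quantile normalization gave 0.078 for Ehd2 in MS + Blebb. against MS and 0.00069 against CTL, and median-of-ratios factors gave 0.0062 for Pacsin3 in MS + Blebb. against CTL. The cause of these turns was not tested. With 1 library left out, MS against CTL ranged from -0.090 to 0.62 for Cav2, -0.16 to 0.048 for Cavin1, -0.11 to 0.54 for Cavin2, -0.20 to 0.077 for Ehd2, -0.18 to 0.10 for Pacsin2 and -0.089 to 0.059 for Pacsin3. MS + Blebb. against MS ranged from -0.66 to 0.044 for Cav2, -0.999 to -0.25 for Cavin2, 0.26 to 0.38 for Cavin1, -0.21 to 0.013 for Ehd2, -0.21 to 0.073 for Pacsin2 and -0.20 to 0.14 for Pacsin3. MS + Blebb. against CTL ranged from -0.39 to 0.39 for Cav2, 0.15 to 0.35 for Cavin1, -0.73 to 0.064 for Cavin2, -0.28 to 0.0023 for Ehd2, -0.22 to -0.010 for Pacsin2 and -0.22 to 0.12 for Pacsin3. The Cav1 difference, with alternatives chosen after seeing the data, ranged from -0.0698 to -0.0024 FPKM between MS and CTL (-0.0024 without CTL replicate 3), from -0.0082 to 0.0578 FPKM between MS + Blebb. and MS, and from -0.0452 to 0.0199 FPKM between MS + Blebb. and CTL. The count over all genes, 0 in each comparison, ranged from 0 to 1 in both comparisons that hold MS, at 1 without MS replicate 2. Ehd2 was below the minimum of 5 FPKM and has no value there. Same-numbered libraries correlated between -0.78 and 0.84 in their deviations from the group means, so the numbers were not taken as pairs. With the replicate block, the count of members called was 0 in each comparison and Cavin1 in MS + Blebb. against MS was at 0.31 (adjusted p = 0.949, limma). With 3 libraries a group, the intervals of Cav2 and Cavin2 span about 1 log2 unit on either side, and the depth of the libraries is unknown.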
